A study of Mus musculus with 2 samples.

Results

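The pore of a voltage-gated calcium channel is formed by its α1 subunit, and the 9 genes examined here encode such subunits: Cacna1c, Cacna1d and Cacna1s of the L type, Cacna1a of the P/Q type, Cacna1b of the N type, Cacna1e of the R type, and Cacna1g, Cacna1h and Cacna1i of the T type. They were chosen by name, 9 of 22367 protein-coding genes of the GENCODE M1 annotation, and Cacna1f, the gene of a retinal L type α1 subunit on the X chromosome, was not among them. Peaks of Rfx6 binding were assigned to a gene when the summit, the position of highest signal in the peak, lay in the gene or within 50 kb of either end. Of 23308 peaks, 88 had such a summit, 52 inside the 9 genes and 36 in the flanks.

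Rfx6 binding was measured by ChIP-seq in Min6b1 cells, an insulin-secreting mouse β cell line grown in 25 mM glucose. In the HA-Rfx6 group the cells received 24 µg of the plasmid pCMV-Tag2A-3HA-Rfx6 and were harvested 2 days later, and chromatin carrying the tagged protein was isolated with the anti-HA antibody 12CA5. In the HA-Ctrl group the same antibody was used on Min6b1 cells, which the cell type label gives without the plasmid, although the protocol text shared by both samples describes the transfection. There was 1 library per group, so no value below has a replicate error and no test between groups was possible. The tagged protein was made from a transfected plasmid, so its level need not be that of the cells' own Rfx6, and no expression was measured in these libraries, so β cell markers were not checked.

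In the HA-Rfx6 library 49443917 reads were mapped, and the peak caller retained 33949757, at no more than 1 read per position. The control held 16911298, of which 3567375 were retained, a ratio of 9.52 between the retained reads, and it entered only through the authors' peak calling. Over all peaks the median was 73 reads and a fold enrichment of 8.54 over the background, and the peak with the fewest reads had 24. Intervals below are at the 95% level, Poisson for densities and Wilson for shares, and cover counting error only.

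L, P/Q, N and R channels open at strong depolarization, whereas T channels open near the resting potential. These channels couple the electrical activity of a β cell to hormone release, since insulin is secreted when calcium rises beneath the plasma membrane. Factors of the RFX family bind the X-box, an inverted repeat with 2 short arms and a few bases between the arms.

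The X-box searched here has the arms GTTGCC and GGCAAC with 0 to 3 bases between them. The best match was taken within 100 bp of each summit by the number of mismatches over the 12 bases of both arms. Since each arm is the reverse complement of the other, a match has the same number of mismatches on both strands. Sequences are written 5′ to 3′ on the plus strand of NCBIM37 (mm9), with 13 bases on each side, and capitals mark the bases of the arms that match. The 10 summits with at most 1 mismatch are given first, because they hold the closest matches found at these genes, and the 6 with a full match come before the 4 with 1 mismatch.
Cacna1s, coding exon 40, chr1:138012693-138012733: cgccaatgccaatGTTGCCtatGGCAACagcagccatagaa
Cacna1a, 31.8 kb upstream, chr8:86880512-86880550: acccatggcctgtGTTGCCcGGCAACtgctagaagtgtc
Cacna1g, intron 37, chr11:94272071-94272110: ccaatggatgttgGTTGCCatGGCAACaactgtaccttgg
Cacna1h, intron 1, chr17:25544500-25544538: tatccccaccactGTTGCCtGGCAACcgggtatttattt
Cacna1h, intron 1, chr17:25555994-25556033: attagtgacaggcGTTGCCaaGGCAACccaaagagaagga
Cacna1h, 22.9 kb upstream, chr17:25593684-25593722: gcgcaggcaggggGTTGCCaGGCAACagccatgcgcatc
Cacna1c, intron 1, chr6:119125136-119125175: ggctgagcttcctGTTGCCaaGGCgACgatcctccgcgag
Cacna1d, intron 8, chr14:30977696-30977735: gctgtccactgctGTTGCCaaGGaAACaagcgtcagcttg
Cacna1g, intron 1, chr11:94330063-94330102: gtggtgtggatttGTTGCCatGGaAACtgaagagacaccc
Cacna1i, intron 2, chr15:80134581-80134619: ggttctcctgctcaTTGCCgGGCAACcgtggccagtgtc

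At Cacna1d, Cacna1g and Cacna1i the summit with the most reads is among those 10. The best matches at the summits with the most reads of the other 6 genes had 2 to 5 mismatches and are shown for contrast, since at all of them but Cacna1e a weaker peak held a closer X-box.
Cacna1c, intron 1, 199 reads, chr6:119029783-119029821: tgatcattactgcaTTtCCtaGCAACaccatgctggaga
Cacna1s, 45.8 kb downstream, 131 reads, chr1:138062169-138062209: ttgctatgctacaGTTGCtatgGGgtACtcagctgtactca
Cacna1a, 36.1 kb upstream, 152 reads, chr8:86876175-86876215: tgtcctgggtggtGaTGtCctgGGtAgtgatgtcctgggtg
Cacna1b, intron 3, 94 reads, chr2:24590271-24590309: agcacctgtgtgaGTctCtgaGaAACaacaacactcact
Cacna1e, intron 7, 87 reads, chr1:156347745-156347784: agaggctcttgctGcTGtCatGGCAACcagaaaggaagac
Cacna1h, 46.5 kb upstream, 313 reads, chr17:25617190-25617229: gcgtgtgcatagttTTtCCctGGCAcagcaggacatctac

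All 9 genes had a summit in the gene or within 50 kb, and all 9 had one inside the gene, whereas Cacna1f, 28.1 kb long and not among the 9, had 0 on a chromosome with 174 peaks in all. The shares over all protein-coding genes were 67.8% for the gene with its flanks and 31.3% for the gene body. The pore genes are long, and among the 1563 genes nearest to them in length, taken as the 200 nearest to each, these shares were 79.5% and 63.7%. The numbers ranged from 2 summits at Cacna1e to 24 at Cacna1c. Per 100 kb of gene the range was from 0.60 at Cacna1e to 23.5 at Cacna1h.

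The T type genes had the highest density of summits. Together the 3 genes, 236 kb long, held 44 summits, 18.6 per 100 kb of gene (13.5 to 25.0). The 3 L type genes, 1122 kb long, held 33, which is 2.94 per 100 kb (2.02 to 4.13). The P/Q type gene Cacna1a had 1.99 per 100 kb (0.645 to 4.63), the N type gene Cacna1b 2.51 (0.684 to 6.43) and the R type gene Cacna1e 0.60 (0.0726 to 2.17). The interval of the T type lay above those of all other types, while those of the L, P/Q, N and R types overlapped one another.

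Flanks of fixed size add more summits per kb to a short gene, and the T type genes are among the shortest of the 9. Counting only summits inside the genes, the T type had 8.04 per 100 kb (4.84 to 12.6) and the L type 2.14 (1.37 to 3.18). Over the whole span, flanks included in the length, the T type had 8.21 per 100 kb (5.96 to 11.0) and the L type 2.32 (1.60 to 3.26). On all 3 scales the T type interval was above that of the L type. Inside the genes the T type interval overlapped that of the N type, 2.51 per 100 kb with an upper bound of 6.43. Each of the P/Q, N and R types is 1 gene.

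**Figure D1:**
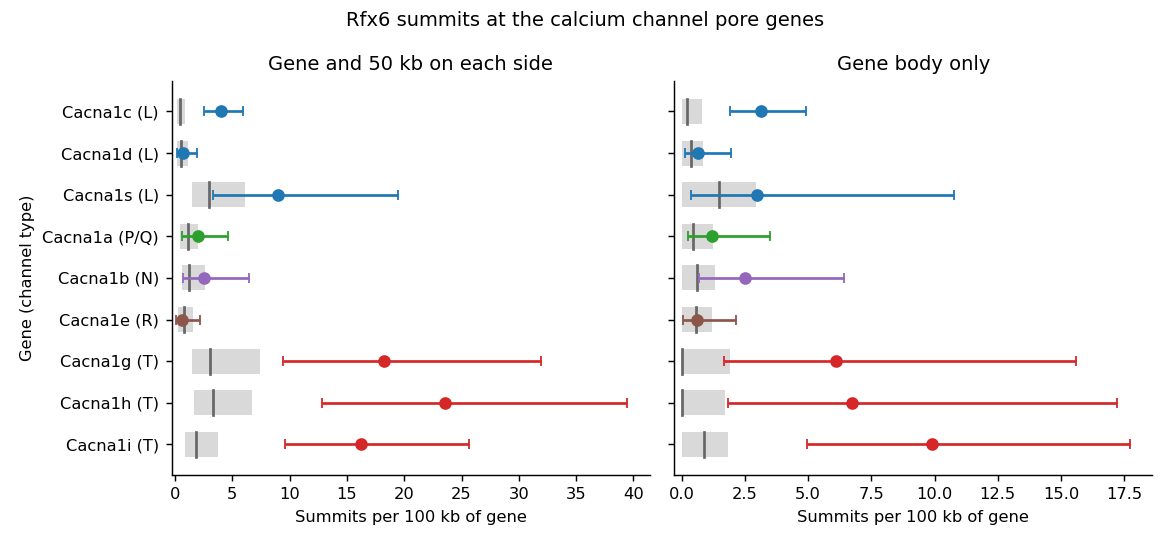
Summits per 100 kb of gene for each pore gene, counted in the gene and 50 kb on each side (left) or in the gene body only (right). Points are the values, bars their 95% Poisson intervals, grey boxes the middle 50% of the 200 genes nearest in length and grey lines their medians, and colours mark the channel types. The 3 T type genes, at 16.2 to 23.5 on the left, lie to the right of their boxes, as do Cacna1c, Cacna1s and, narrowly, Cacna1a. Cacna1e lies below its median on the left.

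Each gene was set beside the 200 protein-coding genes nearest to it in length. Of the 9, 8 had more summits per 100 kb than the median of these genes, beside 48.5% of all protein-coding genes compared with their own neighbours in length. Cacna1i was higher than 99.5% of its 200, Cacna1c than 98.5%, Cacna1h than 98.0% and Cacna1g than 97.5%. Cacna1s was higher than 85.0%, Cacna1a than 75%, Cacna1b than 73.0% and Cacna1d than 55.5%. Cacna1e, higher than 41.0%, was the one below its median. With the flanks counted, the T type genes and Cacna1c therefore stood at the upper end of genes of their length, and the remaining 5 did not reach it. Counting only summits inside the genes, Cacna1i was higher than 99.5%, Cacna1c than 98.5%, Cacna1g than 93.0% and Cacna1h than 91.5%. The highest of the remaining 5 was then Cacna1b, higher than 85.5%, so Cacna1g and Cacna1h stood less far above the rest.

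Of the 9 pore genes, all but Cacna1b and Cacna1e had more neighbouring gene starts than the median of genes of their length. Cacna1b and Cacna1e, with 4 and 2 summits, had 0 neighbouring starts each, beside a median of 1. Within 50 kb of Cacna1h 5 other protein-coding genes start, beside a median of 2 for genes of its length, and within 50 kb of Cacna1c 3 start, beside a median of 0.5. Cacna1d, Cacna1a and Cacna1s, with 3 to 6 summits, also had 3 neighbouring starts each, beside a median of 1. Among the 100 genes nearest in length with a similar number of neighbouring starts, a comparison added after the data were seen, Cacna1h and Cacna1i were higher than 99%, Cacna1g than 98.0% and Cacna1c than 91.0%. Cacna1d was then higher than 34% and fell below the median, so that 7 of 9 genes were above it. Of the 36 summits in the flanks, 25 were nearer to the start of another gene and 15 lay inside one. Some summits inside Cacna1c, Cacna1d, Cacna1s, Cacna1a and Cacna1g were also nearer to the start of another gene. In intron 1 of Cacna1c a summit also lay inside another gene, Dcp1b. A summit near another gene cannot be assigned to either gene from these data.

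Cacna1c (ENSMUSG00000051331.7, chr6:118542314-119146249, minus strand, 604 kb) encodes the main cardiac and smooth muscle L channel, which is also present in β cells. It held 24 summits, 19 of them inside the gene, 3.97 per 100 kb (2.55 to 5.91) beside a median of 0.391 for genes of its length. All 19 lay in introns of the transcript with the longest coding sequence. Intron 3, 45.2% of that transcript, held 12 of them (63.2%), and intron 1, 23.0% of it, held 5. The peaks of intron 3 had between 37 and 127 reads. The highest fold enrichment at this gene, 31.8 with 189 reads, was at a summit 5.42 kb upstream inside Dcp1b, which encodes an mRNA decapping factor. That summit held an X-box with 2 mismatches. The closest X-box, with 1 mismatch and 59 reads, lay in intron 1 of Cacna1c at 71 bp from a start of Dcp1b. A further pair of upstream summits, 44.2 and 46.8 kb away with 74 and 138 reads, lay inside Cacna2d4, which encodes an auxiliary α2δ subunit of the same channels. Downstream, a summit with 43 reads held an X-box with 2 mismatches, and one with 51 reads was 65 bp from the start of Ankrd26.

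Cacna1d (ENSMUSG00000015968.9, chr14:30853135-31304342, minus strand, 451 kb) encodes the L channel that opens at more negative voltages than Cacna1c and is prominent in β cells and sinoatrial cells. It held 3 summits, all inside, with 94, 74 and 81 reads and fold enrichments of 12.35, 12.24 and 6.17. Its density of 0.665 per 100 kb (0.137 to 1.94) was close to the median of 0.481 for its length. The peak with 94 reads, in intron 8, held the X-box with 1 mismatch printed above. The peak with 74 reads was 1.14 kb from a transcript start of the gene. The density of Cacna1d was lower than that of Cacna1c, and their intervals did not overlap.

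Cacna1s (ENSMUSG00000026407.10, chr1:137949327-138016399, plus strand, 67.1 kb) encodes the skeletal muscle L channel, the voltage sensor of excitation-contraction coupling. It held 6 summits with 37 to 131 reads, 2 of them inside, and 8.95 per 100 kb (3.28 to 19.5) beside a median of 2.97. The full X-box in coding exon 40, at chr1:138012706-138012720, had a peak of 57 reads and a fold enrichment of 7.30, both below the medians of all peaks. A summit 0.268 kb downstream with 38 reads held an X-box with 2 mismatches. The peak with the most reads and the highest fold enrichment, 131 reads and 23.8, lay 45.8 kb downstream inside the kinesin gene Kif21b, as did summits with 37 and 50 reads. The peak of 88 reads in intron 2 was the strongest inside Cacna1s.

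Cacna1a (ENSMUSG00000034656.9, chr8:86912339-87164145, plus strand, 252 kb) encodes the P/Q channel of presynaptic terminals, which also takes part in insulin secretion. It held 5 summits with 46 to 152 reads, 1.99 per 100 kb beside a median of 1.09. Its strongest peak, 152 reads and a fold enrichment of 18.3, was 36.1 kb upstream and had no X-box with fewer than 5 mismatches. The peak next to it, 31.8 kb upstream, held a full X-box with 72 reads and a fold enrichment of 12.1. Inside the gene, the peak in intron 19 had 108 reads, a fold enrichment of 16.8 and an X-box with 2 mismatches. A peak of 46 reads lay in coding exon 20. A peak of 53 reads was 910 bp from a transcript start of Cacna1a, one of 2 summits within 1 kb of a start of their own pore gene.

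Cacna1b (ENSMUSG00000004113.11, chr2:24459407-24618672, minus strand, 159 kb) encodes the N channel of nerve terminals. It held 4 summits, all inside, with 94, 71 and 46 reads in intron 3 and 57 reads in coding exon 21. Their fold enrichments, 5.53 to 7.53, were all below the median of all peaks, and their best X-boxes had 3 to 5 mismatches. Cacna1b had no other protein-coding gene starting within 50 kb, and it was higher than 85.5% of genes of its length when only summits inside the genes were counted. Its density there was 2.51 per 100 kb beside a median of 0.626.

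Cacna1e (ENSMUSG00000004110.7, chr1:156239649-156573049, minus strand, 333 kb) encodes the R channel, which is present in neurons and endocrine cells. It held the fewest summits, one in intron 7 with 87 reads and a fold enrichment of 14.6 and one in intron 3 with 42 reads and 5.88. The first had an X-box with 2 mismatches. The density of 0.60 per 100 kb was below the median of 0.815 for genes of its length, and its interval includes that median. No other protein-coding gene starts within 50 kb of Cacna1e.

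Cacna1g (ENSMUSG00000020866.10, chr11:94269705-94335414, minus strand, 65.7 kb) encodes a T channel of thalamic and pacemaker cells. It held 12 summits, 4 of them inside, 18.3 per 100 kb (9.44 to 31.9) beside a median of 3.02. Its strongest peak by both measures lay in intron 1, 5.31 kb after the gene start, with 273 reads, a fold enrichment of 36.0 and an X-box with 1 mismatch. Only 3.40% of all peaks had as many reads. The full X-box in intron 37 had a weaker peak of 74 reads and a fold enrichment of 7.77. Coding exon 8 held a peak of 70 reads. Of the 8 flanking summits, those with 173 and 199 reads lay 23.8 and 22.3 kb downstream inside the transporter gene Abcc3. A summit with 115 reads and an X-box with 2 mismatches lay 15.9 kb upstream inside the endocytic adaptor gene Epn3, with Spata20 the nearest start. The remaining upstream summits, with 81, 52, 43 and 65 reads, lay inside Mycbpap, and the summit next to the gene's downstream end had 62 reads.

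Cacna1h (ENSMUSG00000024112.9, chr17:25511230-25570728, minus strand, 59.5 kb) encodes a T channel of sensory neurons, adrenal cells and other endocrine cells. It held 14 summits, 4 of them inside, 23.5 per 100 kb (12.9 to 39.5) beside a median of 3.35. Intron 1, which makes up 59.5% of the transcript, held 3 of the 4. A pair of these had full X-boxes and were strong, with 221 reads and a fold enrichment of 16.7, and 209 reads and 35.1. The third, between them, had 93 reads and an X-box with 4 mismatches. The fourth summit inside the gene, in intron 4, had 54 reads. The 10 flanking summits, 9 of them upstream, had 35 to 313 reads. The peak with the most reads among all 88, 313 reads with a fold enrichment of 27.8, lay 46.5 kb upstream, with Tekt4, which encodes a tektin of cilia and flagella, as the nearest start. The highest fold enrichment, 37.2 with 211 reads, was at 6 bp from the start of Tekt4. The full X-box 22.9 kb upstream, also nearer to Tekt4, was 81 bp from a summit with 74 reads and a fold enrichment of 5.78. Of the 9 upstream summits, 6 had Tekt4 as the nearest start.

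Cacna1i (ENSMUSG00000022416.9, chr15:80117668-80228709, plus strand, 111 kb) encodes a T channel of neurons. It held 18 summits, 11 of them inside, 16.2 per 100 kb (9.61 to 25.6) beside a median of 1.81. Counting only the gene body it had the highest density of the 9, 9.91 per 100 kb (4.95 to 17.7), ahead of Cacna1h at 6.72 and Cacna1g at 6.09, although the intervals of the 3 genes overlapped. The strongest peak, 291 reads with a fold enrichment of 16.4, lay in intron 2, 16.9 kb after the start, and held an X-box with 1 mismatch. The other 10 inside the gene had 42 to 80 reads and were spread from intron 2 to intron 36. One of 64 reads was in coding exon 9, and one of 42 reads was 575 bp from the start of the transcript Cacna1i-003. The highest fold enrichment, 30.6 with 184 reads, was 10.0 kb upstream, with an X-box of 2 mismatches. A summit 22.8 kb upstream with 44 reads was 106 bp from the start of the neighbouring Rps19bp1. The 4 summits downstream had 30 to 131 reads.

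**Figure D2:**
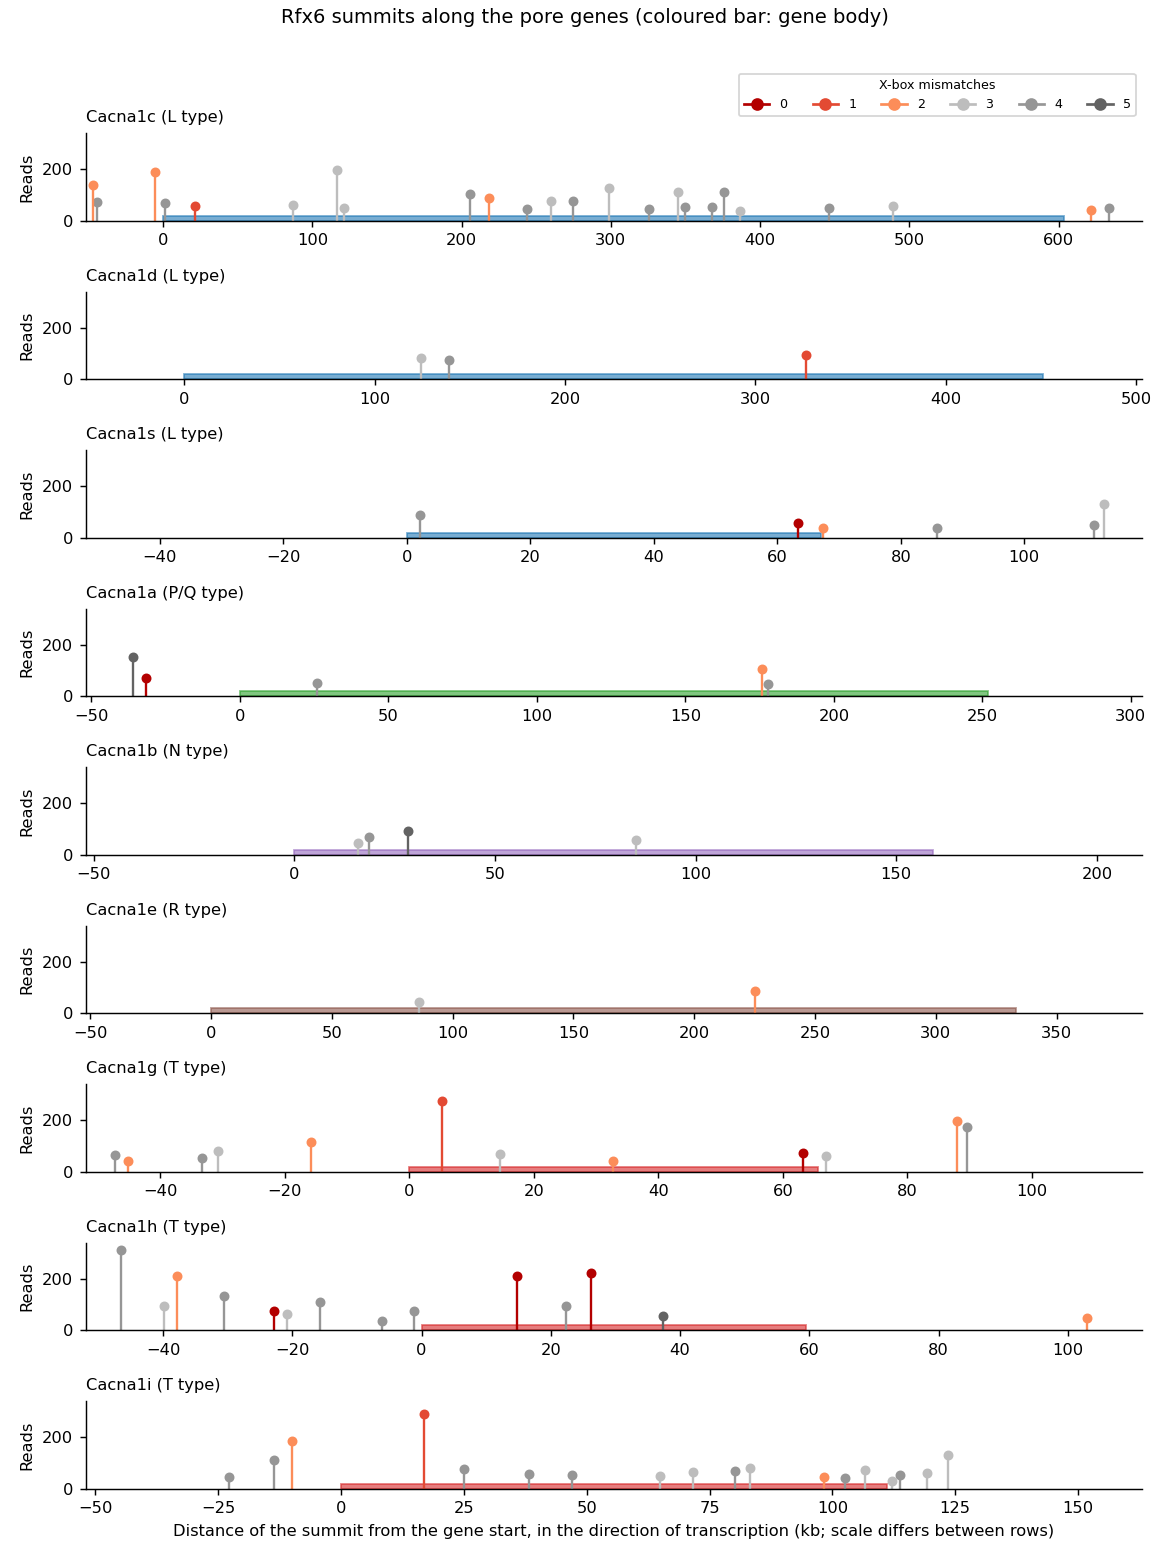
Summits along each pore gene and 50 kb on each side, by distance from the gene start in the direction of transcription (kb, scale set per row), with height giving the reads in the peak and colour the mismatches of the best X-box within 100 bp. The coloured bar at the base is the gene body. Cacna1c carries 12 summits in intron 3, between 206 and 387 kb after its start, while the tallest peaks of Cacna1g and Cacna1i, 273 and 291 reads, are 5.31 and 16.9 kb after their gene starts.

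Most summits inside the pore genes lay in introns. Of the 52, 45 were in an intron of the transcript with the longest coding sequence, 10 of them in intron 1, and 5 were in its coding exons. The other 2, one each at Cacna1a and Cacna1d, lay inside the gene but outside that transcript, and no summit was in an untranslated exon. The share in coding exons was 9.62% (4.18 to 20.6), beside 11.9% of all summits inside protein-coding genes. Among all 88 summits, 9 lay no more than 1 kb from a protein-coding transcript start, beside 21.0% of all peaks, and 7 of these starts belonged to other genes.

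In strength the peaks at the pore genes resembled the list as a whole. Their reads ranged from 30 to 313 with a median of 71.5, beside 73 for all peaks, and their median fold enrichment was 7.89, beside 8.54. The 10% of all peaks with the most reads, those with at least 182, made up 10.1% of the list because of ties, and 10 of the 88 were among them. Of these 10, 8 were at the T type genes, where they made up 18.2% of 44 summits, and 2 were at Cacna1c. Those with 199, 211 and 313 reads at the T type genes, and those with 189 and 199 at Cacna1c, lay inside another gene or nearer to its start. The base composition around the 88 summits was the same as in all peaks, with a median of 54.2% G and C in both.

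**Figure D3:**
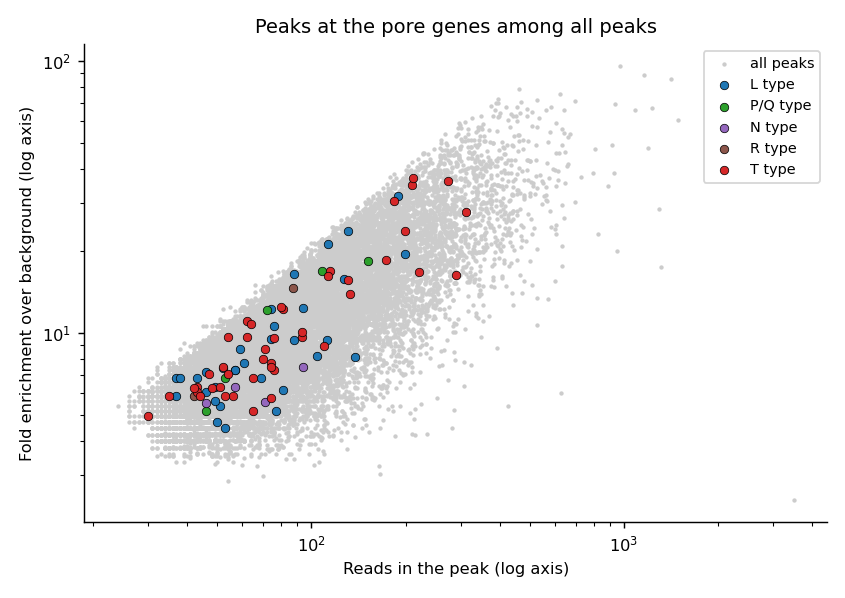
Reads in the peak against fold enrichment, both on log axes, for all peaks (grey) and for the 88 summits at the pore genes, coloured by channel type. The pore gene peaks run through the middle of the cloud, up to 313 reads and a fold enrichment of 37.2. Of the 10 with at least 182 reads, 8 are in or within 50 kb of the T type genes, some of them inside or nearer to another gene.

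Full X-boxes were more frequent at summits of the pore genes than in the whole list. A full X-box was at 6 of 88 summits, 6.82%, beside 0.875% of all peaks. A best match with exactly 1 mismatch was at 4, 4.55%, beside 4.73%. The share with at most 1 mismatch, 10 summits or 11.4% beside 5.61%, thus differed through the full matches. At most 3 mismatches were found at 56.8%, beside 58.8% of all peaks, so that the shares came together for the less similar sequences. The 6 full X-boxes lay at 4 genes, and 3 of them at Cacna1h. Cacna1h and Cacna1g held 4 of the 6, and no match better than 2 mismatches was found at Cacna1b or Cacna1e. The median distance from summit to X-box was 12.0 bp for the 10 closest matches, with a maximum of 81 bp.

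A strict X-box had as its first arm GT, any base, A or G, and CC. Its other arm was A or G, then G, C or T, and AAC, with 0 to 3 bases between the arms, on either strand. It was at 12 of 88 summits, 13.6% (7.98 to 22.3), beside 6.44% of all peaks. In windows 1 kb to the right of the same summits it was found in 0 of 88, which allows a share of up to 3.41% if 0 is read as fewer than 3 counts and 4.18% by the Wilson interval, and in 0.253% of such windows for all peaks. By type the 12 were 5 of 33 at L, 2 of 5 at P/Q, 0 of 4 at N, 0 of 2 at R and 5 of 44 at T type genes. The 1-mismatch matches of Cacna1d, Cacna1g intron 1 and Cacna1i fall outside the strict pattern. The shares of the L type, 15.2% (6.65 to 30.9), and of the T type, 11.4% (4.95 to 24.0), overlapped widely, and too few summits were found at the N and R types to set a limit. A relaxed X-box, with more bases allowed at most positions of the arms but 1 to 3 bases between them, was at 51 of 88 summits. This was 58.0%, beside 46.0% of all peaks.

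**Figure D4:**
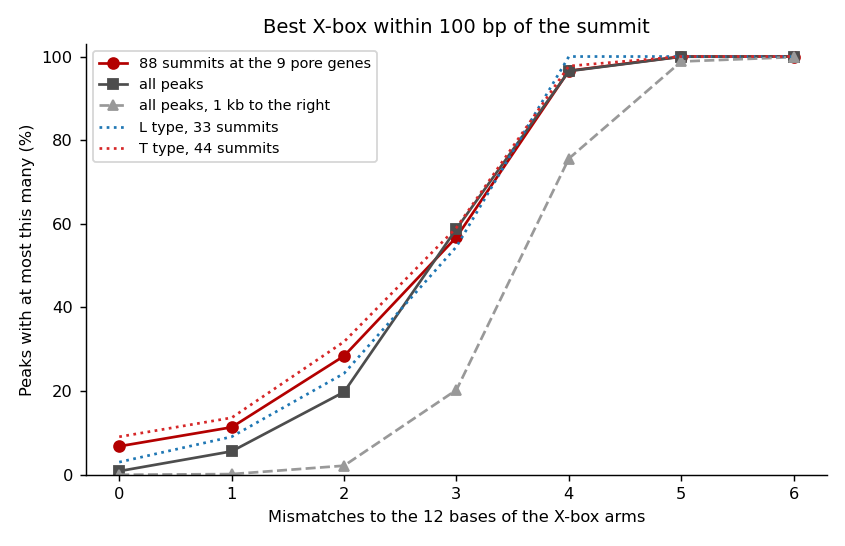
Cumulative share of peaks (%) by the mismatches of the best X-box within 100 bp of the summit, for the 88 summits at the pore genes, the L and T type summits among them, all peaks, and windows 1 kb to the right of all peaks. The pore gene curve starts at 6.82% with 0 mismatches, above the 0.875% of all peaks, and meets it at 3 mismatches.

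The fold enrichment was compared with the closeness of the X-box, with mismatches pooled in classes. The median fold enrichment was 12.2 over the 10 summits with 0 or 1 mismatch, 8.91 over the 40 with 2 or 3 and 7.24 over the 38 with 4 or more. For all peaks these medians were 11.0, 8.94 and 8.0. Within the pooled classes the order at the pore genes was not that of the whole list. The 6 full X-boxes of the pore genes had a median fold enrichment of 9.945, lower than 14.4 for the 4 with 1 mismatch and 14.6 for the 15 with 2, whereas for all peaks the medians fell from 13.1 to 10.6 and 9.65. The range within each class at the pore genes was wide, from 5.78 to 36.0 in the first and from 4.47 to 27.8 in the last.

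A larger share of the full X-boxes at these genes than in the genome lay at a summit. The 9 genes and their flanks contain 10 full X-boxes, of which 6 were within 100 bp of a summit, 60.0% (31.3 to 83.2), beside 208 of 1088 in the genome, 19.1% (16.9 to 21.6). All 3 at Cacna1h, the 1 at Cacna1g, the 1 at Cacna1s and 1 of 2 at Cacna1a were at a summit. The other 4 were at Cacna1a, 39.9 kb from the nearest summit, at Cacna1e, 32.8 kb from one, and at Cacna1i, where one was 1.33 kb and the other 0.136 kb from one. Of 26 X-boxes with 1 mismatch in the same spans, 5 were within 100 bp of a summit, 19.2% (8.51 to 37.9), beside 7.75% of those in the genome. The genome shares include sites far from any gene, whereas all 9 genes held summits, so the sets are unlike. No such share was computed for other genes of similar length. Neighbouring sites in 1 library are not replicates, so these shares describe this library.

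Other genes of calcium and sodium handling were counted in the same way. All 8 genes of auxiliary calcium channel subunits had a summit in the gene or within 50 kb, and all 8 stood above the median of genes of their length. Together they had 1.94 summits per 100 kb (1.4 to 2.62), beside 4.18 (3.36 to 5.16) for the pore genes. These pooled densities give long genes more weight. The medians over single genes were closer, 3.12 per 100 kb for the auxiliary subunits and 3.97 for the pore genes. The median shares of genes of similar length that were lower were 75.75% and 85.0%. Among the auxiliary subunits Cacna2d4 had 11 summits, 9.49 per 100 kb, and was higher than 95% of genes of its length, and its surroundings overlap those of Cacna1c. Cacnb2, which encodes the β2 subunit, had 3 summits, one with 304 reads. Of the 6 calcium release channels of the endoplasmic and sarcoplasmic reticulum, all had a summit and 4 stood above the median, with 1.31 per 100 kb (0.864 to 1.91). The voltage-gated sodium channel pore genes and the leak channel gene Nalcn, 12 annotated genes since Scn8a is annotated as 2, had a summit at 10 and stood above the median at 5, with 2.24 per 100 kb (1.53 to 3.16). Inside the gene a summit was present at 7 of 8, 6 of 6 and 3 of 12 of these families, and at 9 of 9 pore genes. Over all protein-coding genes the shares were 67.8% with flanks, 31.3% inside and 48.5% above the median of their length. Among the genes nearest in length to the pore genes, 79.5% had a summit with flanks and 63.7% inside. No full X-box was at a summit of any of these other genes, whose families had 42, 27 and 32 summits in the order given. Over all peaks the share was 0.875%, at which few or none would be found, so the 0 does not set these families apart.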

How the data were processed

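ChIP-seq peaks of the HA-Rfx6 library, called by the authors against the HA-Ctrl library, were used. The submitters' processing notes name CASAVA 1.8.2, Bowtie and MACS 1.4.2 (p-value cutoff 1e-05). The deposited list gives for each peak the count of reads, not normalized, the ratio to the expected background (fold enrichment), a score derived from the log10 of the p-value, and a false discovery rate (percent) that was not used here. The authors retained at most 1 read per position, which limits counts at strong sites, and the background rests on the shallower control.

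Summits were placed on NCBIM37 (mm9) with GENCODE M1 and Python 3.11.15 (numpy 2.4.6, pandas 2.3.3, scipy 1.17.1, pysam 0.24.0, matplotlib 3.10.9). The search was tested on simulated data. The 9 genes, the comparison lists and the alternatives were chosen with earlier results of these data known. All 9 genes are named, with their summits of most reads and highest fold enrichment, those with a strict X-box or within 1 kb of an own start, and the genes nearest to flanking summits. With 1 library per group no p-value was computed. The alternatives were other distances, stricter peak sets, other gene limits, other numbers of genes of similar length and other X-box settings, and 1 was added after the data were seen.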

Additional observations from a re-analysis of the deposited data

How the results depend on the processing

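No paired analysis was possible because each condition had 1 library, and no replicate could be left out. Over 14 alternatives, 72 of 92 values stayed within 1.5 times the count, or within the interval, given above. The number of pore genes with a summit was 8 to 9 and the number above the median of their length 7 to 9. With the gene body only, the summits fell from 88 to 52. With the 50% of peaks of highest score, a fold enrichment of at least 10, or the 50% of peaks with the most reads, 44, 31 and 43 summits remained, 26, 15 and 24 of them inside, which follows in part from the smaller lists. In the same order the L type had 1.34, 0.802 and 1.43 summits per 100 kb, the N type 0.628, 0 and 0.628, and the T type 10.2, 7.62 and 9.74. The T type had 12.7 within 20 kb, 8.04 in the gene body and 11.9 when a summit counted only for the nearest gene. It had the highest density in 9 of 9 such settings, 3.76 to 9.50 times that of the L type. The relaxed X-box gave 58.0% in place of 13.6%. The depth of the control limits the fold enrichments, and its effect was not tested.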
